A study of Mus musculus with 6 samples.

Results

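*Sbsn* (suprabasin), *Dmkn* (dermokine) and *Krtdap* (keratinocyte differentiation-associated protein) lie next to each other on mouse chromosome 7 and encode secreted proteins of differentiating keratinocytes. These 3 genes, of 22295 rows in the count table, were selected on measured values: earlier results of the KO against WT contrast in the same libraries were known when they were picked, so their own change between genotypes is described here without a test. All 3 had counts in every library and passed the filter on genes without a count, which left 21681 genes. The gene symbol was the rule that found their rows.

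The epidermis renews from basal keratinocytes, which leave the basement membrane, move through the suprabasal layers and end as cornified cells. Suprabasin and dermokine are known as secreted products of these suprabasal layers, and Krtdap is known as a small secreted protein that appears when keratinocytes start to stratify. The 3 genes are neighbours in mammalian genomes and are commonly used as markers of keratinocyte differentiation.

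The 6 libraries each come from the GFP-positive keratinocytes of 1 mouse, isolated from epidermis by FACS, and fall into 3 of K19 *Itga3* WT and 3 of K19 *Itga3* KO mice. Both groups were on the FVB background and carried a tamoxifen-inducible Cre under the K19 promoter, which is active in the hair bulge (HB), and the mTmG reporter, and the KO mice also carried floxed *Itga3* alleles, the gene of the integrin α3 subunit. All mice of both groups received tamoxifen (10 mg/ml over 4 days, from the age of 6 weeks), 1 dose of 30 µg DMBA in 200 µl acetone at 7 weeks, and then TPA (12.34 µg per application in 200 µl acetone), so the WT group was neither untreated nor free of Cre. These are the values of the sample descriptions, from which the methods of the study differ for tamoxifen, with a lower injected concentration, an earlier start and added topical doses. GFP marks cells in which Cre was active and their progeny wherever they had moved, which need not be in the HB. The libraries are called WT a to c and KO a to c, in an order without meaning.

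Depth was 20578309 to 23670507 counts per library. At this depth the floor of 3 counts equals 0.127 to 0.146 CPM, the usual scaling of counts to library size, a limit that covers counting error only, and each of the 3 genes had at least 5072 counts in every library. *Itga3* (ENSMUSG00000001507, chr11:95044474-95076801) had 371, 252 and 271 CPM in the WT libraries and 131, 124 and 134 CPM in the KO libraries, without overlap. Its log2 fold change was -1.20 (SE 0.13, edgeR adjusted p = 0.00283; exact two-sided permutation p = 0.1, the smallest that 3 against 3 allows), and the edgeR call was lost without WT c (log2 fold change -1.27, adjusted p = 0.130) and without KO a (-1.21, adjusted p = 0.0934). Basal keratinocyte markers, which check the labelled cell type, were high: the summed level of *Krt5*, *Krt14* and *Itga6* was 20059 to 30970 CPM in WT and 26058 to 28694 CPM in KO. The suprabasal markers *Krt1*, *Krt10* and *Ivl* summed to 1132 to 1553 CPM in WT and 1371 to 1433 CPM in KO. HB markers (*Cd34*, *Krt15*, *Lgr5*, *Lhx2* and *Sox9*, led by *Krt15*) summed to 11888 to 17906 CPM in WT and 11135 to 14497 CPM in KO. Markers of other cells were far lower, at 114 to 349.8 CPM for sebaceous gland (*Scd1* leading), 5.37 to 11.6 CPM for melanocytes (*Dct* leading), 6.05 to 10.9 CPM for immune cells (*Cd74* leading) and 2.29 to 3.44 CPM for endothelium (*Kdr* leading) over the 6 libraries. *Lyz2* among the immune and *Cdh5* among the endothelial markers stayed at or below 3 counts in every library. The sebaceous sum was nearly all *Scd1*, at a mean of 209 CPM in WT and 213 CPM in KO. The other sebaceous markers were at 1.48 and 1.76 CPM (*Awat2*) and 0.272 and 0.136 CPM (*Mc5r*).

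In the annotation used for the counts (GRCm38), *Sbsn* (ENSMUSG00000046056) spans chr7:30734739-30756134, *Dmkn* (ENSMUSG00000060962) chr7:30763756-30781063 and *Krtdap* (ENSMUSG00000074199) chr7:30787896-30791097. All 3 are protein-coding and on the + strand, so they are read in the same direction. The gaps between them measure 7621 bases (*Sbsn* to *Dmkn*) and 6832 bases (*Dmkn* to *Krtdap*), and the whole run from the first base to the last takes up 56.4 kb.

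The start sites of these genes share a short sequence that the choice of genes did not use, though the search window was widened after a first look. TGAGTCA is the TPA response element, the site to which AP-1 factors are known to bind, and it is shown because all animals were treated with TPA. In the RefSeq promoter windows of build GRCm38.p6 (300 bases each, 250 before and 50 from the start site), all 3 genes matched, with 5 windows in all, and TGAGTCA on either strand stood in 5 of 5. Among all windows it stood in 1709 of 32851 (5.20%). Counted by gene, it stood in 1607 of 27025 genes (5.95%) and in 2 of 38 neighbouring genes within 500 kb (5.26%). The 5 windows are not independent, since those of the *Dmkn* start sites 30763756 and 30763758 hold the same match. The *Sbsn* match needs the bases after the start site. These shares are therefore given as a description only. The sequences around it are given 5′ to 3′ on the + strand, with TGAGTCA in capitals, 40 bases before it and 20 after it.
Sbsn (chr7:30751425-30751491, start site 30751471): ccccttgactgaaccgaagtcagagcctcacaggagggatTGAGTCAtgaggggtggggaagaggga
Dmkn (chr7:30763627-30763693, start site 30763756): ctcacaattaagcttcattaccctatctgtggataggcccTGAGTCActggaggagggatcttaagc
Dmkn, internal start (chr7:30776283-30776349, start site 30776405): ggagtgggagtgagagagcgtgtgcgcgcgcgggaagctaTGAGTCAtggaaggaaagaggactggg
Krtdap (chr7:30787784-30787850, start site 30787905): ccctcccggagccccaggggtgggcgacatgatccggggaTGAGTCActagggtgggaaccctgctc

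The first base of TGAGTCA was at -89 from the start site of *Dmkn* (-91 from another annotated start a few bases on, whose window holds the same match), at -82 from its internal start and at -81 in *Krtdap*. In *Sbsn* it was at -6, so that the match ran into the start site itself. This match is found only in a window that runs past the start site, and the bases after the start were added to the search once the bases before it had been seen. Outside these capitals the 4 sequences are given for comparison by eye and were not aligned.

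Of the other motifs searched, TATAAA on the given strand was found in 1 of 5 windows, that of *Krtdap* at -30 (8.32% of all windows). CCACCC on either strand, a site for KLF factors, was found in 3 of 5 (31.5% of all windows), and GTGGGAA on either strand, a site for RBPJ, in 1 of 5 (6.38%), at -69 in *Krtdap*, where it overlaps a CCACCC match on the other strand. AACCGGTT (GRHL factors), TTGCGCAA (C/EBP factors) and GGAATG (TEAD factors), each on either strand, were found in 0 of 5, against 0.146%, 0.183% and 14.7% of all windows. A match describes the letters in the window and does not show binding, and the absence of these exact letters says nothing about the factor.

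*Sbsn* showed the largest difference of the 3 between genotypes. The library counts were 10775, 10898 and 12385 in WT and 24206, 20737 and 20745 in KO. Scaled by library size and TMM factors, this gave 494, 499 and 546 CPM in WT and 1029, 973 and 1003 CPM in KO. Every KO library lay well above every WT library, and the spread within each genotype was small beside the gap.

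The mean level of *Sbsn* was 513 ± 28.5 CPM in WT and 1002 ± 28.2 CPM in KO (SD, n = 3 mice each), a ratio of 1.95 and a log2 fold change of 0.96 (SE 0.09). In a bulk library, more cells that express a gene and more RNA per cell cannot be told apart. This ratio therefore holds for the sorted population as a whole. The log2 fold change was 0.94 to 1.01 when each library was left out in turn.

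*Dmkn* was at a similar level in both genotypes. It had 22715, 19803 and 23100 counts in WT and 25134, 23214 and 22775 in KO, or 1042, 907 and 1018 CPM against 1068, 1089 and 1101 CPM. The KO libraries lay above the WT libraries without overlap, but the gap between the highest WT and the lowest KO library was narrower than the range of the WT libraries. The means were 989 ± 72.2 and 1086 ± 16.7 CPM (SD, n = 3 each), a ratio of 1.10 and a log2 fold change of 0.13 (SE 0.10). Without WT b, the lowest library, the log2 fold change was 0.076.

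*Krtdap*, the shortest of the genes, varied most between mice. The counts were 5072, 7394 and 7944 in WT and 9505, 7338 and 7291 in KO, which corresponds to 233, 339 and 350.2 CPM in WT and 404, 344 and 353 CPM in KO. The groups overlapped, since WT c was above KO b, and WT a stood below the rest while KO a stood above it. The means were 307 ± 64.7 and 367 ± 32.4 CPM (SD, n = 3 each), a ratio of 1.19 and a log2 fold change of 0.26 (SE 0.14). The size of this difference rested on WT a, without which the log2 fold change was 0.10. WT a was also the WT library with the least *Krt1*, at 649 CPM, and the lowest sum of the suprabasal markers, at 1132 CPM, and the part of this in the *Krtdap* value was not tested.

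**Figure D1:**
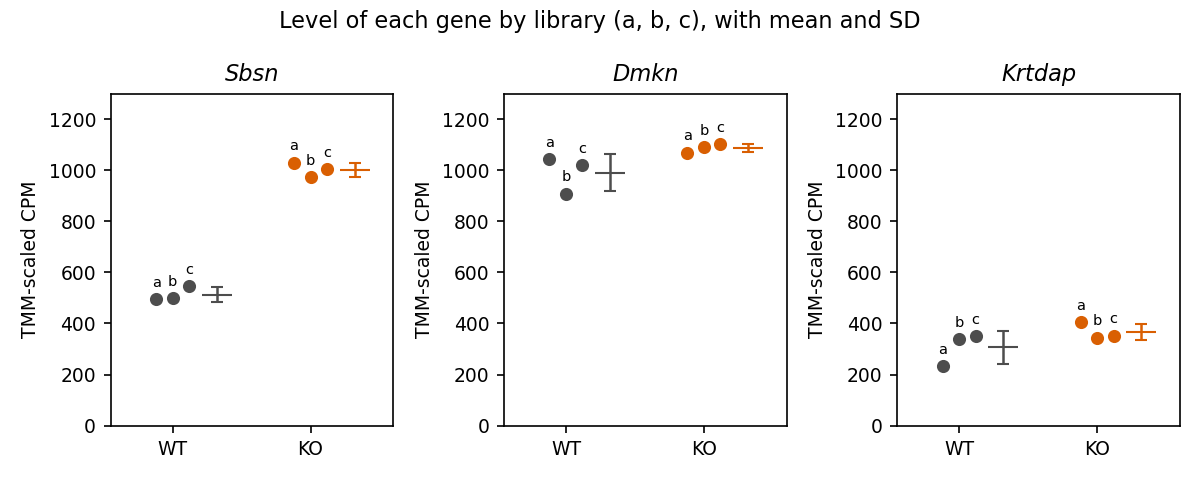
Level of *Sbsn*, *Dmkn* and *Krtdap* in each library, in TMM-scaled CPM on a linear axis from 0, with WT libraries in grey and KO libraries in orange; the cross beside the points is the mean with its SD (n = 3). *Sbsn* lies at 494 to 546 CPM in WT and 973 to 1029 CPM in KO, while the *Dmkn* and *Krtdap* points of both genotypes lie close together.

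In the fit of all genes, 1 of the 3 genes, *Sbsn*, had an edgeR adjusted p below 0.05. Of all 21681 tested genes, 146 had one (0.673%), and 100 of these were higher in KO (0.461%). For 2 of the 3, *Sbsn* and *Dmkn*, every KO library was above every WT library, which held for 1742 of all genes (8.03%). These counts describe the choice of the genes, which used the same contrast, and nothing further is read from them. The direction was higher in KO for all 3 genes under 12 of 12 other ways of processing or leaving out libraries. *Sbsn* had an adjusted p below 0.05 in 11 of these 12. Without WT c it did not (log2 fold change 1.01, edgeR adjusted p = 0.0520). All of these fits reuse the libraries and the contrast on which the genes were picked. They describe the effect of processing and are no test of the change.

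The spread between mice of the same genotype also differed between the 3 genes. As the pooled SD of log2 CPM within genotypes it was 0.06 for *Sbsn*, 0.08 for *Dmkn* and 0.25 for *Krtdap*. Genes at about the same level (within 1 log2 CPM) had a median of 0.13 (304 genes around *Sbsn*), 0.14 (191 around *Dmkn*) and 0.12 (1037 around *Krtdap*). *Sbsn* and *Dmkn* thus lay below the median of genes of their level and *Krtdap* above it. A small spread within genotypes also helps a gene to stand out between them. The low spread of *Sbsn* is therefore not independent of the contrast on which it was picked. The coefficient of variation of *Krtdap* was 21.1% in WT and 8.83% in KO.

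The summed level of fibroblast markers also differed between the genotypes, in the direction opposite to *Sbsn*. It was 116 to 178 CPM in WT and lower in KO, at 48.1 to 80.3 CPM, without overlap. The 6 markers did not share a direction. The sum was carried by *Col1a1* and *Col1a2*, collagens of the dermis, at 85.4 ± 41.8 and 61.9 ± 10.1 CPM in WT and 37.5 ± 9.82 and 27.3 ± 10.6 CPM in KO (SD, n = 3 each; edgeR adjusted p = 0.127 and 0.0555), and *Pdgfra*, at 1.02 and 0.414 CPM, also had its lower mean in KO. *Dcn* (decorin), at 1.03 ± 0.588 and 3.70 ± 1.98 CPM (edgeR adjusted p = 0.113), and *Col3a1*, at 0 counts in every WT library and a mean of 0.510 CPM in KO, had the higher mean in KO, as did *Lum*, which was at or below 3 counts in every library. The HB marker *Cd34* was lower in KO (853 ± 40.7 against 516 ± 113 CPM, log2 fold change -0.72, SE 0.14, edgeR adjusted p = 0.0462), the only one of the 5 HB markers that was called, and close to the threshold. *Lgr5*, *Krt15* and *Lhx2* had log2 fold changes of -0.47 (SE 0.17), -0.21 (SE 0.17) and -0.11 (SE 0.11). *Sox9* went the other way, at 0.16 (SE 0.10). The part of these cells in the *Sbsn* value was not tested.

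Ratios of counts within a library do not depend on how libraries are scaled to each other. Both ratios to *Sbsn* were lower in KO. There were 2.11, 1.82 and 1.87 *Dmkn* counts per *Sbsn* count in the WT libraries and 1.04, 1.12 and 1.10 in the KO libraries. Every WT library thus held far more *Dmkn* than *Sbsn* counts, whereas in the KO libraries the counts were nearly level. The mean ratio was 1.93 ± 0.156 in WT and 1.09 ± 0.042 in KO (SD, n = 3 each), a difference of -0.83 on the log2 scale, which stayed between -0.87 and -0.76 with each library left out.

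*Krtdap* counts per *Sbsn* count were 0.471, 0.678 and 0.641 in WT and 0.393, 0.354 and 0.351 in KO. Again the groups did not overlap, with means of 0.597 ± 0.111 and 0.366 ± 0.0231 (SD, n = 3 each) and a log2 difference of -0.69 (-0.85 to -0.59 with each library left out). *Krtdap* counts per *Dmkn* count, in contrast, overlapped between the genotypes, at 0.223, 0.373 and 0.344 in WT and 0.378, 0.316 and 0.320 in KO, with a log2 difference of 0.14. Both ratios with *Sbsn* use the contrast on which the genes were picked and are given without a test.

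**Figure D2:**
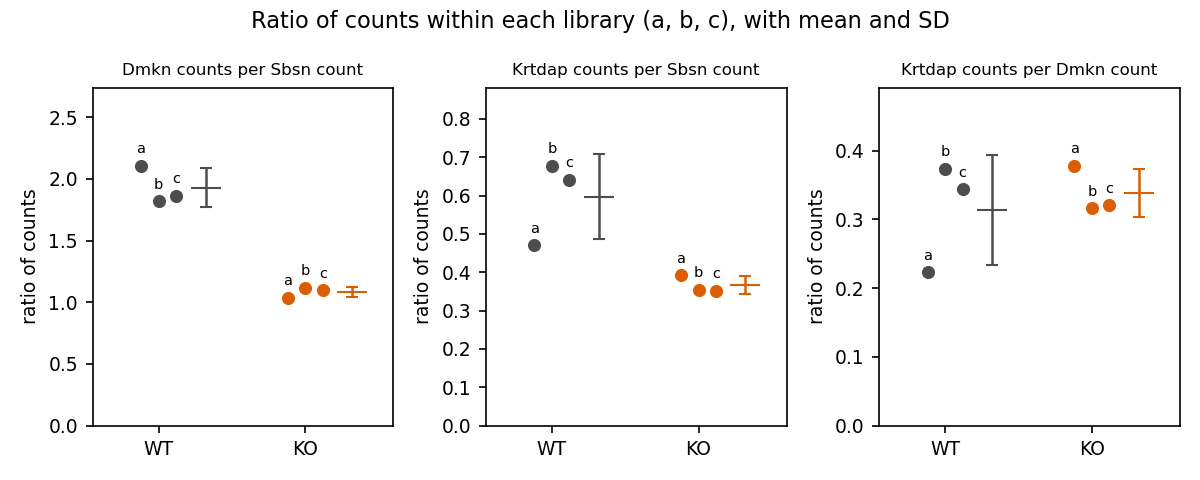
Ratio of the counts of each pair of genes within each library, on linear axes from 0, for WT (grey) and KO (orange) libraries, with the mean and SD (n = 3) beside the points. The 2 ratios with *Sbsn* in the denominator are lower in every KO library than in any WT library, and the ratio of *Krtdap* to *Dmkn* overlaps between the genotypes.

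Per length, all 3 genes ranked among the most abundant transcripts of the sorted cells. With the summed length of all annotated exons (3625 bases for *Sbsn*, 2192 for *Dmkn* and 679 for *Krtdap*), the mean level over the 6 libraries was 209 CPM per kilobase for *Sbsn*, 473 for *Dmkn* and 496 for *Krtdap*, which are ranks 149, 51 and 46 among the 21434 tested genes with a length. By genotype, *Sbsn* was at 142 ± 7.87 CPM per kilobase in WT and 276 ± 7.79 in KO, *Dmkn* at 451 ± 33.0 and 496 ± 7.62, and *Krtdap* at 452 ± 95.4 and 540.4 ± 47.7 (SD, n = 3 each).

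On this scale *Sbsn* was below *Dmkn* in 6 of 6 libraries, with a mean log2 difference in level of -1.26 (SD 0.46; exact two-sided sign-flip permutation p = 0.03125, adjusted p = 0.0469 over the 3 pairs), and below *Krtdap* in 6 of 6 (-1.31, SD 0.42; exact p = 0.03125, adjusted p = 0.0469). These are the smallest p-values that 6 libraries allow. *Dmkn* and *Krtdap* did not differ beyond their spread (-0.052, SD 0.28; exact p = 0.6875).

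The order of the levels depended on the transcript assumed, since the genes have 5 (*Sbsn*), 6 (*Dmkn*) and 9 (*Krtdap*) annotated transcripts of very unequal length and counts per gene cannot tell them apart. With the longest transcript of each gene (2460, 2063 and 470 bases) the log2 differences were -0.79 for *Sbsn* minus *Dmkn*, -1.28 for *Sbsn* minus *Krtdap* and -0.50 for *Dmkn* minus *Krtdap*. With the shortest protein-coding transcript (432, 662 and 323 bases), an alternative added after the data were seen, they turned to 0.084, 0.69 and 0.60. No order of the 3 levels therefore held for every length.

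For *Sbsn* the counted gene also spans more than the suprabasin transcript. The gene starts at 30734739 in the count table, whereas the RefSeq start site is at 30751471. In the reference annotation (GENCODE M21) a non-coding gene on the same strand, *Tmem147os* (ENSMUSG00000109224), shares 279 bases with the exons of *Sbsn*, 7.70% of their summed length. Reads from that transcript may have been counted as *Sbsn*, and their share in the *Sbsn* counts was not tested. In GENCODE M21 no *Sbsn* transcript starts before 30751471. The summed exon length of 3625 bases therefore leaves out any counted exon before that base. The effect of this on the *Sbsn* level per length was not tested.

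The genes around the locus were also read, by position alone. Of the 57 tested genes within 500 kb of the 3 genes, 0 had an edgeR adjusted p below 0.05 (smallest 0.403) and 4 had an unadjusted p below 0.05, against 146 (0.673%) and 2503 of all 21681 tested genes. At that share of calls, a count of 0 among 57 genes does not set the neighbourhood apart from other genes. The log2 fold changes were evenly split, with 28 higher and 29 lower in KO, and their median was -0.0034, against 0.00 for all tested genes. Among the 28 neighbours with a mean log2 CPM above 1, the log2 fold changes ran from -0.61 to 0.57. The count of calls was also 0 with windows of 250 kb and 1 Mb, with limma-voom, with DESeq2 and under the other alternatives, with 0 to 5 genes at an unadjusted p below 0.05.

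The genes nearest to *Sbsn* were at low levels or did not pass the test. *Gapdhs*, the sperm form of a glycolytic enzyme, overlaps the *Sbsn* span on the opposite strand (chr7:30729775-30743681) and had a log2 fold change of -0.02 (SE 0.52) at 7 to 18 counts per library. *Tmem147*, a membrane protein of the endoplasmic reticulum (chr7:30727701-30729534), was at 62.0 ± 7.25 CPM in WT and 67.1 ± 3.63 CPM in KO (SD, n = 3 each; log2 fold change 0.11, SE 0.10, edgeR adjusted p = 0.681). The non-coding *C630016N16Rik* (chr7:30729579-30745929), which overlaps *Sbsn* on the same strand, was at 6.99 ± 0.820 and 5.92 ± 1.49 CPM (log2 fold change -0.24, SE 0.21, edgeR adjusted p = 0.681). *Gm26935* (chr7:30737653-30748437), also non-coding, on the same strand and within the *Sbsn* span, was at 0.662 and 0.661 CPM. Where genes of the same strand overlap, how reads in the shared part were assigned is uncertain.

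Beyond *Krtdap* lay *Ffar2*, a receptor for short-chain fatty acids, at a mean of 0.151 CPM in WT and 0.108 CPM in KO, and *Mag*, a myelin protein, at 0 or 1 count in each library. A neighbour at a level similar to *Sbsn*, named after its values were seen, was *Fxyd3*, a regulator of the sodium pump that starts 333 kb away. It had 571 ± 16.2 CPM in WT and 570.1 ± 21.0 CPM in KO (SD, n = 3 each), with a log2 fold change of -0.0034 (SE 0.09).

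**Figure D3:**
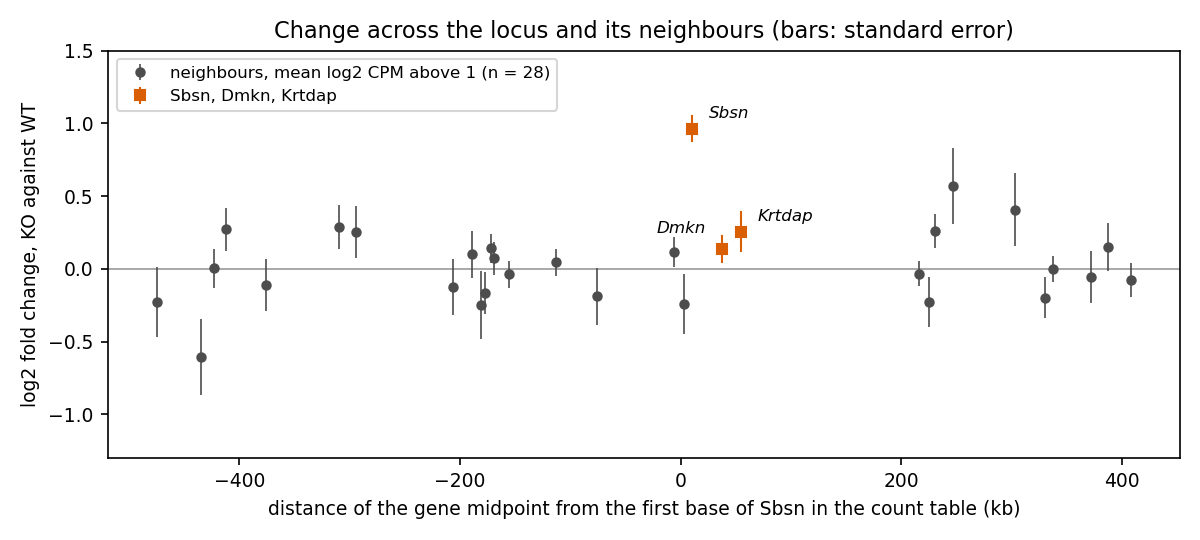
Log2 fold change of KO against WT (vertical axis, bars are standard errors of the edgeR fit) against the distance of the gene midpoint from the first base of *Sbsn* in kb, for *Sbsn*, *Dmkn* and *Krtdap* (orange squares) and the 28 neighbours with a mean log2 CPM above 1 (grey points). *Sbsn* at 0.96 lies above every neighbour, which run from -0.61 to 0.57, and *Dmkn* and *Krtdap* lie within their range.

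Other genes of the suprabasal and cornified layers gave a mixed picture. Of 43 such genes, all tested, 5 were called, all higher in KO (11.6%, against 0.673% of all tested genes), and 26 were higher and 17 lower, with a median log2 fold change of 0.24 (0.00 for all tested genes). The list was put together with earlier results known. It includes *Sprr1a* and *Klk5*, whose change in these libraries was among those results and is therefore not independent evidence of a direction, and without them 3 of 41 were called and the median was 0.14.

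Of the calls, 3 were *Klk5*, *Klk7* and *Klk8*, kallikrein proteases of the cornified layer that are known to cleave the links between shedding cells, and the list held no other kallikrein. *Klk5* was at 10.0, 11.5 and 9.66 CPM in WT and 27.1, 22.4 and 24.4 CPM in KO (log2 fold change 1.25, SE 0.13, edgeR adjusted p = 0.00242). *Klk7* was at 63.5, 72.0 and 61.0 CPM in WT and 239.5, 128 and 129 CPM in KO (1.34, SE 0.21, edgeR adjusted p = 0.0187), so the KO libraries were all higher but KO a stood far above the other two. *Klk8* went from 16.3 ± 2.28 to 38.8 ± 14.1 CPM (1.26, SE 0.21, edgeR adjusted p = 0.0256), with KO a again the highest.

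*Sprr1a*, a precursor of the cornified envelope, rose from 55.1 ± 6.16 CPM in WT to 108 ± 13.9 CPM in KO (log2 fold change 0.97, SE 0.12, edgeR adjusted p = 0.00402), close to the change of *Sbsn*. *Serpinb2*, a protease inhibitor of stressed and differentiating keratinocytes, rose from 51.0 ± 8.59 to 91.4 ± 6.94 CPM (0.84, SE 0.12, edgeR adjusted p = 0.0117). The early suprabasal keratins were not called: *Krt1* had a log2 fold change of 0.07 (SE 0.12) and *Krt10* of 0.03 (SE 0.15), at 777 ± 113 and 566 ± 134 CPM in WT. Late envelope genes were not called either, with 0.33 (SE 0.21) for *Ivl* (involucrin), -0.69 (SE 0.81) for *Lor* (loricrin) and -0.26 (SE 0.35) for *Flg* (filaggrin). *Lor* and *Flg* varied widely between mice, as *Lor* ranged from 8.44 to 60.1 CPM in WT and from 1.49 to 25.0 CPM in KO.

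Among 23 regulators of epidermal differentiation, a list likewise made with earlier results known, 3 were called, all higher in KO (13.0%, against 0.673% of all tested genes), and 19 were higher and 4 lower, with a median log2 fold change of 0.26 (0.00 for all tested genes). Neither list is independent of the contrast, and all tested genes include many at low counts. The shares are therefore set side by side as a description and are no test of either list. *Prdm1* (Blimp1), a repressor that acts in terminal differentiation, rose from 17.1 ± 2.33 to 39.8 ± 11.8 CPM (SD, n = 3 each; log2 fold change 1.22, SE 0.19, edgeR adjusted p = 0.0213). *Cebpb*, a C/EBP factor, rose from 55.3 ± 6.60 to 88.7 ± 10.6 CPM (0.68, SE 0.12, edgeR adjusted p = 0.0260). *Trp63*, the p63 gene of basal keratinocytes, had a log2 fold change of 0.01 (SE 0.11). Without WT c, 0 of these 8 called genes were called by edgeR, with adjusted p-values from 0.0926 for *Serpinb2* to 0.368 for *Prdm1* and log2 fold changes from 0.58 for *Cebpb* to 1.36 for *Klk8*. Without KO a, 1 of the 8 was called (*Klk7*, log2 fold change 0.98, adjusted p = 0.0221), and limma-voom on all libraries called 2 of the 8, *Klk5* (adjusted p = 0.0126) and *Sprr1a* (adjusted p = 0.0238).

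**Figure D4:**
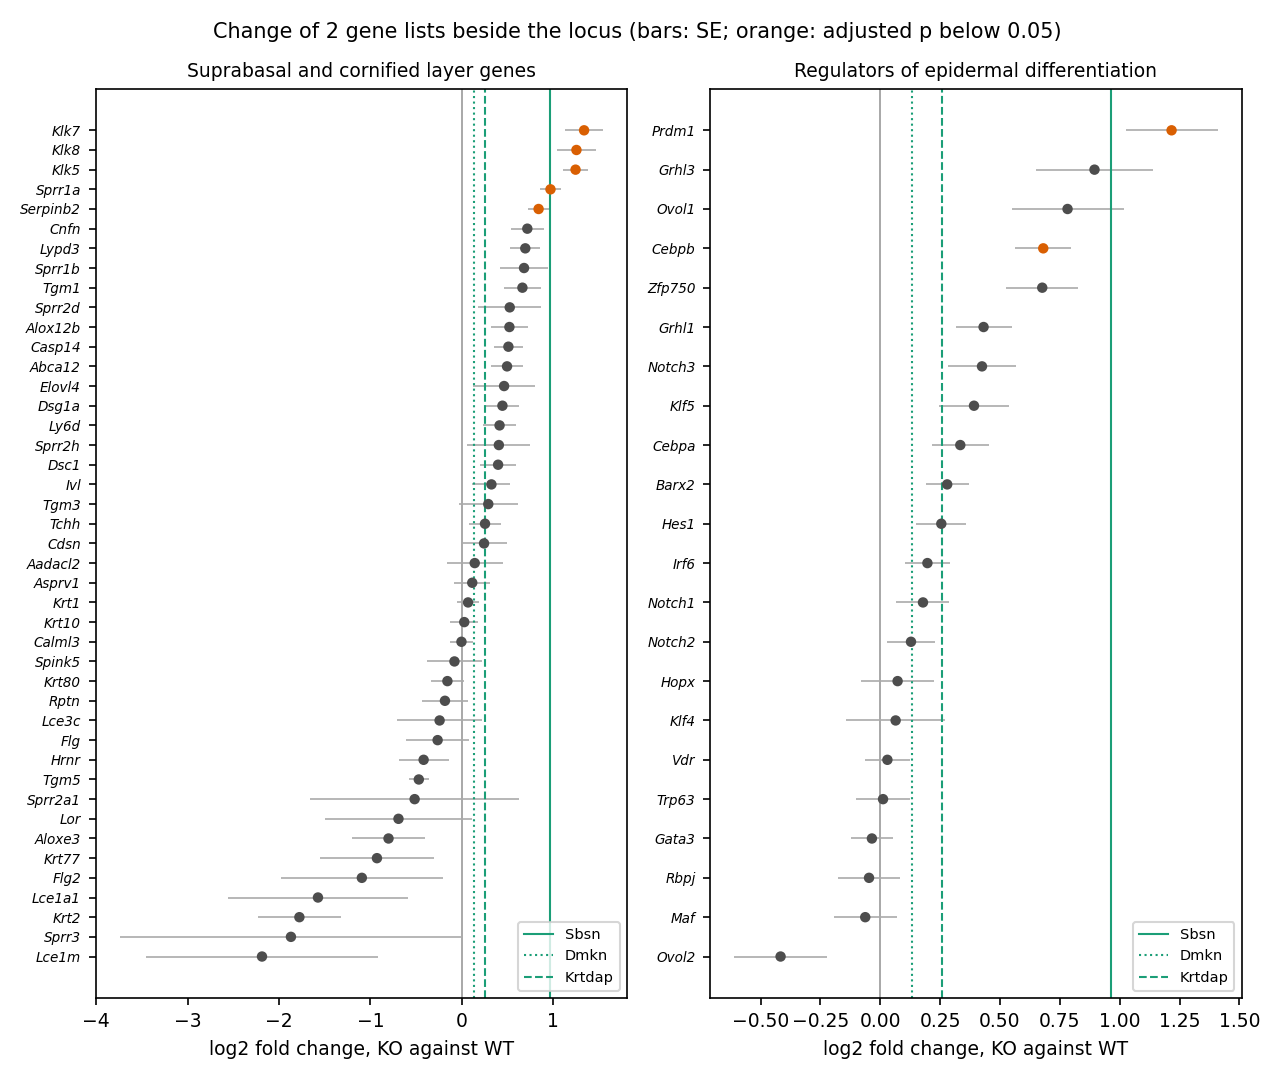
Log2 fold change of KO against WT (horizontal axis, bars are standard errors of the edgeR fit) for the 43 suprabasal and cornified layer genes and 22 of the 23 regulators of differentiation, 1 gene per line, with genes of adjusted p below 0.05 in orange and the values of *Sbsn* (0.96), *Dmkn* (0.13) and *Krtdap* (0.26) as vertical lines. The 5 and 2 called genes shown all lie to the right of 0. Among the lowest genes of the left panel, *Lce1m* (log2 fold change -2.19, SE 1.26) has a wide bar. *Krt2* (-1.78, SE 0.45) is also among the lowest but has a narrower bar, and neither was called.

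The genes with the most similar profile over the 6 libraries differed between the 3 genes. Likeness was measured as the root mean square difference of log2 CPM after each gene was centred on its own mean, among 8574 other genes with a mean log2 CPM above 4, which describes the same 6 libraries and has no test. The genes most like *Sbsn* were *Sprr1a* (0.0965), *Serpinb2* (0.125), *Cpeb2* (0.151), *Pitpnm3* (0.167) and *Klk5* (0.170), on chromosomes 3, 1, 5, 11 and 7. The profile of *Sbsn* is mainly its difference between genotypes, on which it was picked, so these are genes with a difference of similar size. *Krtdap* came at rank 797 (0.385) and *Dmkn* at rank 1608 (0.420) in likeness to *Sbsn*.

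The genes most like *Dmkn* were *Rrp1* (0.0109), *Cap1*, *Sf3b3*, *Scamp2* and *Sgta* (0.0196), whose levels, like that of *Dmkn*, varied little. For *Krtdap* they were *Gltp* (0.0465), which encodes a glycolipid transfer protein, *Ypel2*, *Mreg*, *Agpat3* and *Sh3bgrl2* (0.0834). *Gltp* had 188 ± 37.1 CPM in WT and 230.0 ± 19.3 CPM in KO (SD, n = 3 each), and like *Krtdap* it had a wider spread in WT than in KO. In likeness to *Krtdap*, *Dmkn* came at rank 2914 and *Sbsn* at rank 7645.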

How the data were processed

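The authors prepared strand-specific libraries from polyadenylated RNA (TruSeq Stranded mRNA), sequenced single reads of 65 bases, aligned them to GRCm38 with TopHat2 2.1.0 (Bowtie 1.1, per the submitters' processing notes) and counted uniquely mapped reads per gene on the sense strand with a script of their own. The deposited values are raw counts per gene and library. The header of each count column names its genotype and not its sample number, and libraries served as unnumbered replicates (0 columns were left unmapped).

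Genes with a count in at least 1 library were fitted with edgeR 4.0.16 (TMM factors, quasi-likelihood test, Benjamini-Hochberg adjustment over all genes) in R 4.3.3, and every adjusted p for a gene is from this fit unless another tool is named. A call is an adjusted p below 0.05. The edgeR p-values rest on the spread between 3 mice per genotype, with information on the spread shared over genes. The sign-flip test of the levels per length took the 6 libraries of both genotypes together. The SD given with it therefore includes differences between genotypes. No pair of libraries looked like 1 library deposited again: the chi-square of their counts divided by its degrees of freedom was at least 10.1. Alternatives were limma-voom (limma 3.58.1), DESeq2 1.42.0, other scalings and filters on low counts, and each library left out. Exon lengths came from GENCODE M21 (98.9% of tested genes) and promoter windows from RefSeq. The code was tested on simulated counts.

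Named were the 3 genes, *Itga3*, called neighbours, the nearest protein-coding genes on either side (2 each), overlapping non-coding genes, called genes of each list with *Krt1*, *Krt10*, *Ivl*, *Lor* and *Flg*, the 5 most similar profiles per gene and leading markers. *Fxyd3*, *Trp63*, *Dcn*, *Col1a2*, *Col3a1*, *Pdgfra*, *Cd34*, *Lum*, *Lyz2*, *Cdh5*, *Krt2* and *Lce1m* were named after their values were seen. The values of *Lgr5*, *Lhx2*, *Sox9*, *Awat2* and *Mc5r* were likewise added after they were seen. The 3 genes and the lists were chosen with earlier results of these data known. Protein sequences were not used here. A gene that the naming rule covers is not reported here.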

Additional observations from a re-analysis of the deposited data

How the results depend on the processing

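No paired analysis was possible because the count columns carry no replicate numbers, so a replicate block could not be set. The changes of *Sbsn*, *Dmkn* and *Krtdap*, the 2 ratios with *Sbsn* and the neighbours without a call kept their direction or count in every alternative run for them. Of the 15 most similar genes, 11 were shared when genes with a mean log2 CPM above 2 were compared, and the others were replaced. The 8 called genes of the lists also kept their direction. The number of genes called was less stable. Of all genes, 24 were called by limma-voom, 546 by DESeq2, 15 after filterByExpr, 12 where each library had to have 10 or more counts, and 5 (without WT c) to 521 (without WT a) with 1 library left out, among them 10 without KO a and 30 without KO c. The suprabasal list had 2, 9, 2 and 2 calls under the same 4 alternatives and 0 (without WT c, with 17 at an unadjusted p below 0.05) to 7 with 1 library left out. For the regulators the counts were 0, 5, 0 and 0 (13, 13, 12 and 12 at an unadjusted p below 0.05) and 0 (without WT c, KO a or KO c, with 10, 9 and 11) to 4 with 1 library left out. The log2 fold change of *Itga3* was -1.31 to -1.01 with 1 library left out.

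For the levels per length, leaving out a library gave -1.35 to -1.15 for *Sbsn* minus *Dmkn*, -1.39 to -1.20 for *Sbsn* minus *Krtdap* and -0.16 to -0.0050 for *Dmkn* minus *Krtdap*, with exact adjusted p-values of at least 0.0625, since 5 libraries cannot give a permutation p below 0.05. With the shortest coding transcript, added after the data were seen, all 3 turned, to 0.084 (exact adjusted p = 0.656), 0.69 and 0.60 (both exact adjusted p = 0.0469). The cause of the unstable counts was not tested.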
